A study of Drosophila melanogaster with 12 samples.

Results

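The proteasome is the large protease that breaks down proteins marked with ubiquitin. Its core particle is a barrel of alpha rings, which gate the entry, and of beta rings, which carry the cutting sites. Its regulatory particle has a base of Rpt ATPases and Rpn subunits, which binds and unfolds the substrate, and a lid of Rpn subunits, which removes the ubiquitin. Eggs of Drosophila melanogaster are loaded by the mother with mRNAs of such housekeeping complexes. Here those of the proteasome were taken as a comparison for transcripts bound with Slam, a protein of the cellularization furrow that associates with its own mRNA. The members were the genes whose symbol begins with Prosalpha, Prosbeta, Rpn or Rpt followed by a digit. The same 46 members were found among the 15682 genes of the table of the antibody experiment and the 17559 genes of the table of the GFP-binder experiment. Of these, 32 have the plain symbol of a subunit, 7 for the alpha ring, 7 for the beta ring, 6 for the ATPases, 4 for other base subunits (Rpn1, Rpn2, Rpn10 and Rpn13) and 8 for the lid. The other 14 are paralogs with a letter R or T after the digit, a class of genes many of which are known from the testis.

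RNA was sequenced from material bound in immunoprecipitates of embryos aged 1.5 to 3 h, in 12 libraries of 2 experiments. In the antibody experiment, both groups came from wild-type lysate, with 3 libraries from a Slam antibody and 4 from a control antibody to Dia, an actin-nucleating formin. The GFP-binder, a single-chain antibody that holds GFP, was used on lysates from flies with a genomic GFP-slam transgene (libraries 1 and 3, 2 in all) and from wild type without it (3 libraries, OrR in the labels). Whether the GFP-slam embryos also carried endogenous slam is not given in the labels. RNA of the lysates before precipitation was not analysed here, so that each ratio compares bound RNA with bound RNA. More of a transcript in the lysate and more binding can therefore not be told apart, nor can fewer cells of a type and less RNA per cell.

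The antibody libraries held 4383704 (Dia antibody 3) to 31647090 counts, and the GFP-binder libraries 20170936 to 47249817. Between 11115 and 12486 genes had a count in the Slam antibody libraries, against 8129 to 9757 in the Dia antibody libraries. In the GFP-binder experiment these ranges were 11524 to 12340 in GFP-slam and 10515 to 11514 in wild type. The mRNA of slam had 119176, 36523 and 32099 CPM with the Slam antibody, against 347 to 1443 CPM with the Dia antibody. Slam antibody 1 thus stood apart from the other Slam antibody libraries for this mRNA. In GFP-slam it had 11737 and 10649 CPM, against 641 to 724 CPM in wild type. Each of 7 maternal markers had counts in every library, with summed levels of 1761 to 1969 CPM with the Slam antibody, 1837 to 2908 with the Dia antibody, 2173 to 2445 in GFP-slam and 1590 to 2364 in wild type. CPM are counts scaled to a common library total after TMM normalization and are not corrected for transcript length, so that levels were not compared between genes. Log2 ratios were fitted with edgeR's quasi-likelihood model for each experiment. A gene passed the test at an adjusted p (Benjamini-Hochberg) under 0.05. The share of all genes at an unadjusted p under 0.05 was not counted. Genes were tested from a mean normalized count of 50 in the antibody experiment and of 10 in the GFP-binder experiment, which 33 members reached in each. All 31 plain subunits with counts and Rpt3R were tested in both experiments, Prosbeta2R1 with the antibodies and Rpt6R with the GFP-binder. The methods of the study speak of biological replicates without saying what was separate, so that p-values measure the spread between these libraries, which may in part be technical. Members below the minimum and members at 0 are described separately.

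With the Slam antibody, 1 proteasome member was higher and 1 was lower than with the Dia antibody in edgeR's test. The higher one was the paralog Prosbeta2R1 and the lower one was Rpn5, a scaffold subunit of the lid. Prosbeta2R1 reached the minimum of counts only through the Slam antibody libraries, with mean normalized counts of 145 there and 6.09 with the Dia antibody. It could thus enter the test only with a high ratio, and no conclusion is drawn from its call. Of all 7466 genes tested, 6.84% were higher and 3.62% lower. Of the 31 plain subunits tested, 29 had a log2 ratio below 0, although their ratios were small. The median over the 33 members tested was -0.29, against -0.03 over all genes tested. With the replicate numbers as blocks, Prosalpha7, Prosbeta4 and Prosbeta7 also passed as lower (adjusted p = 0.0280, 0.0279 and 0.0165 from edgeR), which made 4 lower members beside Prosbeta2R1. In that fit 10.5% of all genes were higher and 8.52% lower. The same 3 genes also passed with DESeq2, where 10.3% of all genes were higher and 6.62% lower, and without Dia antibody 4, where 7.47% were higher and 5.91% lower. Dia antibody 4 has no partner of its number, so that it adds nothing to the ratio in the blocked fit. The blocked fit and the fit without Dia antibody 4 thus take the ratio from the same libraries and are not separate results.

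**Figure D1:**
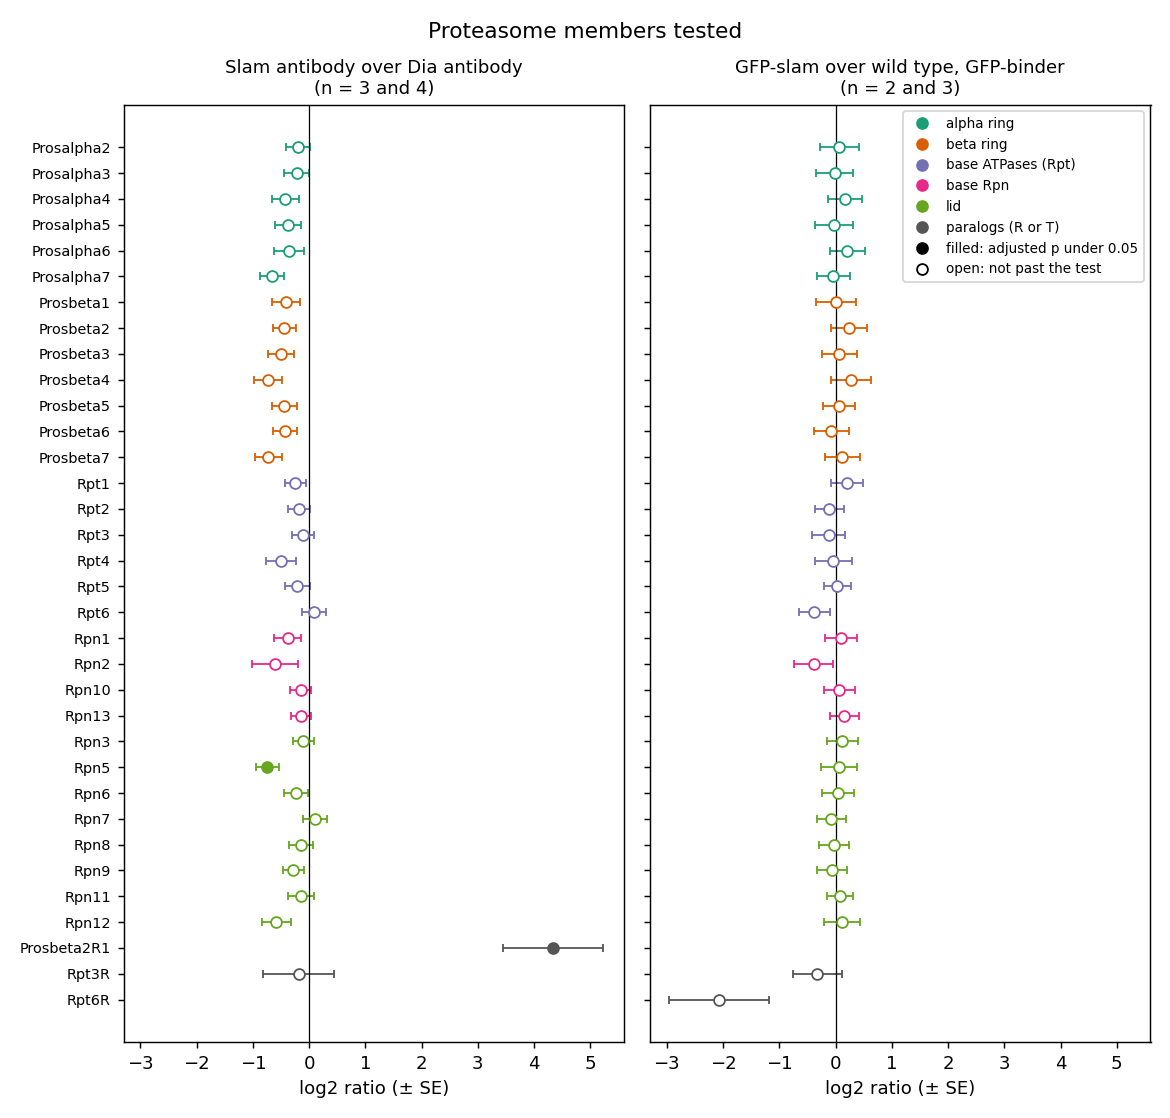
Log2 ratio ± SE of each member tested, Slam antibody over Dia antibody on the left and GFP-slam over wild type on the right, coloured by subcomplex and filled where the adjusted p was under 0.05. Most plain subunits lie a little left of 0 with the antibodies and around 0 with the GFP-binder, while Prosbeta2R1 stands at 4.34 and Rpt6R at -2.07.

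Rpn5 had 207, 224 and 211 CPM with the Slam antibody, against 427, 356, 320 and 329 CPM with the Dia antibody. The 3 Slam antibody libraries all lay below the 4 Dia antibody libraries. The log2 ratio was -0.74 (SE 0.20, adjusted p = 0.0349 from edgeR). Without Slam antibody 1, 2 or 3 or Dia antibody 1 it no longer passed (adjusted p = 0.0780, 0.122, 0.125 and 0.0608), at log2 ratios between -0.78 and -0.65. In the GFP-binder libraries, Rpn5 had 504 and 311 CPM in GFP-slam, against 359, 342 and 471 CPM in wild type, and these groups overlapped (log2 ratio 0.06, SE 0.31).

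The other lid subunits had smaller ratios. Rpn12 had 179, 166 and 223 CPM with the Slam antibody, against 424, 213, 261 and 239 CPM with the Dia antibody (log2 ratio -0.59, SE 0.26, adjusted p = 0.160). Rpn7, at the other end of the lid, had 107, 117 and 122 CPM with the Slam antibody, against 102, 92.2, 83.7 and 151 CPM with the Dia antibody (log2 ratio 0.10, SE 0.22). The lid subunit with the most counts was Rpn6, with 339, 357 and 384 CPM with the Slam antibody, against 537, 333, 419 and 404 CPM with the Dia antibody. Rpn11, the subunit that cuts off ubiquitin, had 62.6, 73.0 and 78.9 CPM with the Slam antibody, against 63.3, 88.8, 59.2 and 105 CPM with the Dia antibody. For these 4 genes the libraries of both antibodies overlapped. The median log2 ratio of the 8 lid subunits was -0.19.

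The core particle was the part with the most even picture. All 13 subunits with counts had a log2 ratio below 0, between -0.74 (Prosbeta4) and -0.19 (Prosalpha2), with SEs of 0.21 to 0.26. Of these, 0 passed edgeR's test, while 3 had an unadjusted p under 0.05, a limit at which the share of all genes was not counted. With DESeq2 3 passed, where 6.62% of all genes were lower. The median was -0.37 over the 6 alpha subunits and -0.45 over the 7 beta subunits. In 8 of the 13 the Slam antibody libraries all lay below the Dia antibody libraries, against 2 of the 18 subunits of the regulatory particle, Rpt1 and Rpn5. Of all genes tested, 12.2% were apart in this way. Among the 1616 genes with a mean normalized count of at least 3000, the range in which all 13 core subunits lie, it was 22.6%.

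In the alpha ring, Prosalpha7 had 230, 246 and 232 CPM with the Slam antibody, against 477, 347, 367 and 304 CPM with the Dia antibody. The log2 ratio was -0.67 (SE 0.21, adjusted p = 0.0631 from edgeR). Prosalpha2, whose ratio was nearest to 0 in this ring and which had the most counts, had 357, 308 and 308 CPM with the Slam antibody, against 476, 298, 360 and 349 CPM with the Dia antibody. Its libraries overlapped, those of Prosalpha7 did not.

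In the beta ring, the structural subunits Prosbeta4 and Prosbeta7 had the lowest ratios. Prosbeta4 had 107, 134 and 122 CPM with the Slam antibody, against 290, 199, 173 and 145 CPM with the Dia antibody (log2 ratio -0.74, SE 0.25, adjusted p = 0.0742 from edgeR). Prosbeta7 had 202, 183 and 183 CPM with the Slam antibody, against 412, 267, 355 and 223 CPM with the Dia antibody (log2 ratio -0.73, SE 0.24, adjusted p = 0.0702 from edgeR). The catalytic subunits Prosbeta1, Prosbeta2 and Prosbeta5 had log2 ratios of -0.41, -0.44 and -0.45. Of these, Prosbeta1 had 176, 203 and 166 CPM with the Slam antibody, against 346, 196, 243 and 184 CPM with the Dia antibody. Prosbeta5, the beta subunit with the most counts, had 284, 297 and 285 CPM with the Slam antibody, against 518, 339, 402 and 314 CPM with the Dia antibody. The groups overlapped for Prosbeta1 and were apart for Prosbeta5.

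**Figure D2:**
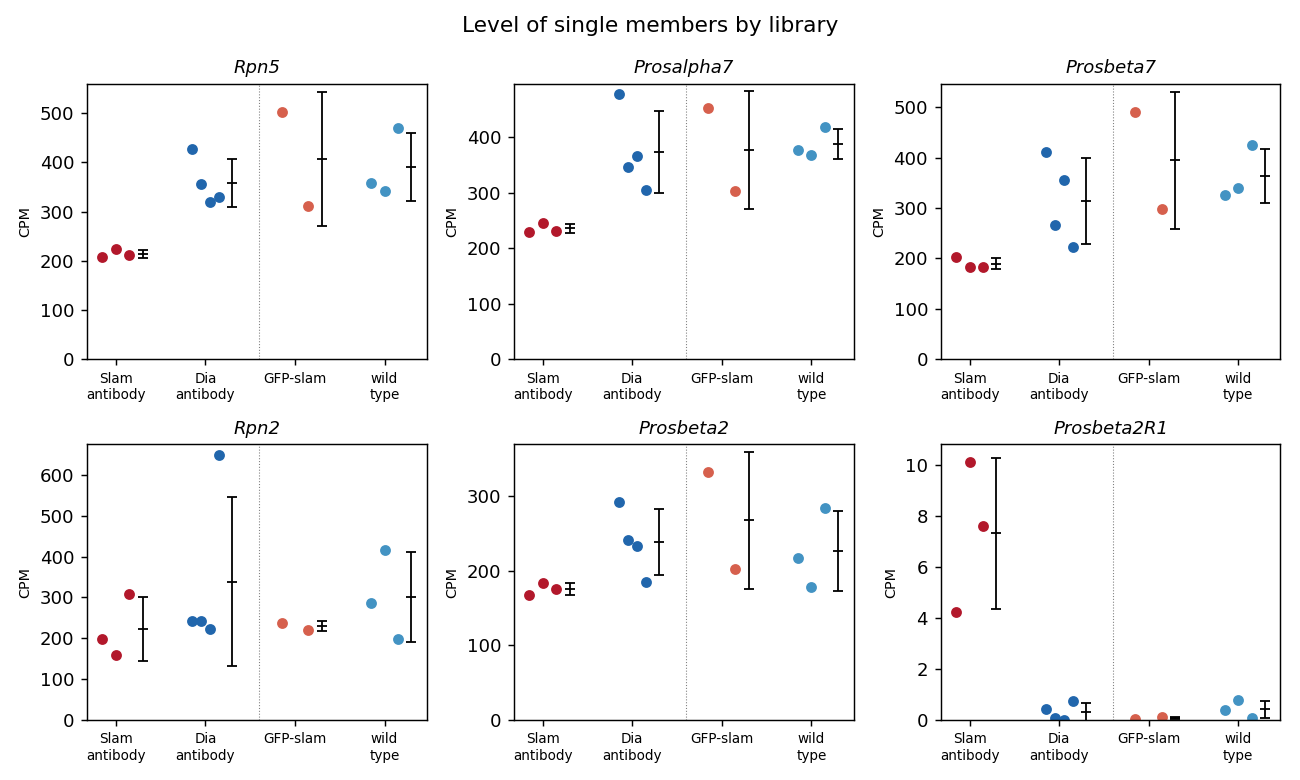
Level in CPM of 6 members in each library (points, Slam antibody left of Dia antibody and GFP-slam left of wild type) with mean ± SD beside them. Rpn5 and Prosalpha7 are lower in every Slam antibody library than in any Dia antibody library, 1 Dia antibody library stands out for Rpn2 at 649 CPM, and Prosbeta2R1 has levels above 4 CPM only with the Slam antibody.

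In the base, the ratios were nearer to 0. Among the ATPases, Rpt4 had the lowest, with 226, 191 and 237 CPM with the Slam antibody, against 433, 190, 309 and 306 CPM with the Dia antibody (log2 ratio -0.51, SE 0.26). Rpt6 had the highest, with 238, 235 and 276 CPM with the Slam antibody, against 270, 197, 197 and 277 CPM with the Dia antibody (log2 ratio 0.08, SE 0.21). Rpt1, the ATPase with the most counts in this experiment, varied least among the libraries of an antibody. It had 242, 244 and 258 CPM with the Slam antibody, against 303, 285, 298 and 291 CPM with the Dia antibody. These groups did not overlap, but the log2 ratio of -0.25 (SE 0.18, adjusted p = 0.393 from edgeR) did not pass the test.

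Among the other base subunits, Rpn2, a scaffold of the base, had 197, 158 and 309 CPM with the Slam antibody, against 241, 241, 222 and 649 CPM with the Dia antibody. Its log2 ratio of -0.61 (SE 0.41, adjusted p = 0.343 from edgeR) rested on Dia antibody 4 and was -0.09 without that library. Rpn1, another scaffold that also binds ubiquitin, was highest in the same library. The ubiquitin receptor Rpn13 had the ratio nearest to 0 of these 4, with 134, 145 and 147 CPM with the Slam antibody, against 165, 166, 143 and 155 CPM with the Dia antibody (log2 ratio -0.15, SE 0.17).

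Summed over all 46 members, the level was 6384, 6242 and 6832 CPM with the Slam antibody, against 10209, 7181, 7927 and 8011 CPM with the Dia antibody. The groups did not overlap. As a share of the counts before normalization, the members took 0.537% to 0.716% with the Slam antibody and 0.791% to 0.990% with the Dia antibody. Such a share falls where other mRNAs take more of the counts. Slam antibody 1, which had the lowest share, had 119176 CPM of slam mRNA alone. The part of this in the shares was not tested. The summed level of the core particle was 3160, 3127 and 3148 CPM with the Slam antibody, nearly the same in each library, against 5734, 3602, 4226 and 3452 CPM with the Dia antibody. The regulatory particle had 3215, 3101 and 3669 CPM with the Slam antibody, against 4471, 3577, 3695 and 4553 CPM with the Dia antibody, and these sums overlapped.

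**Figure D3:**
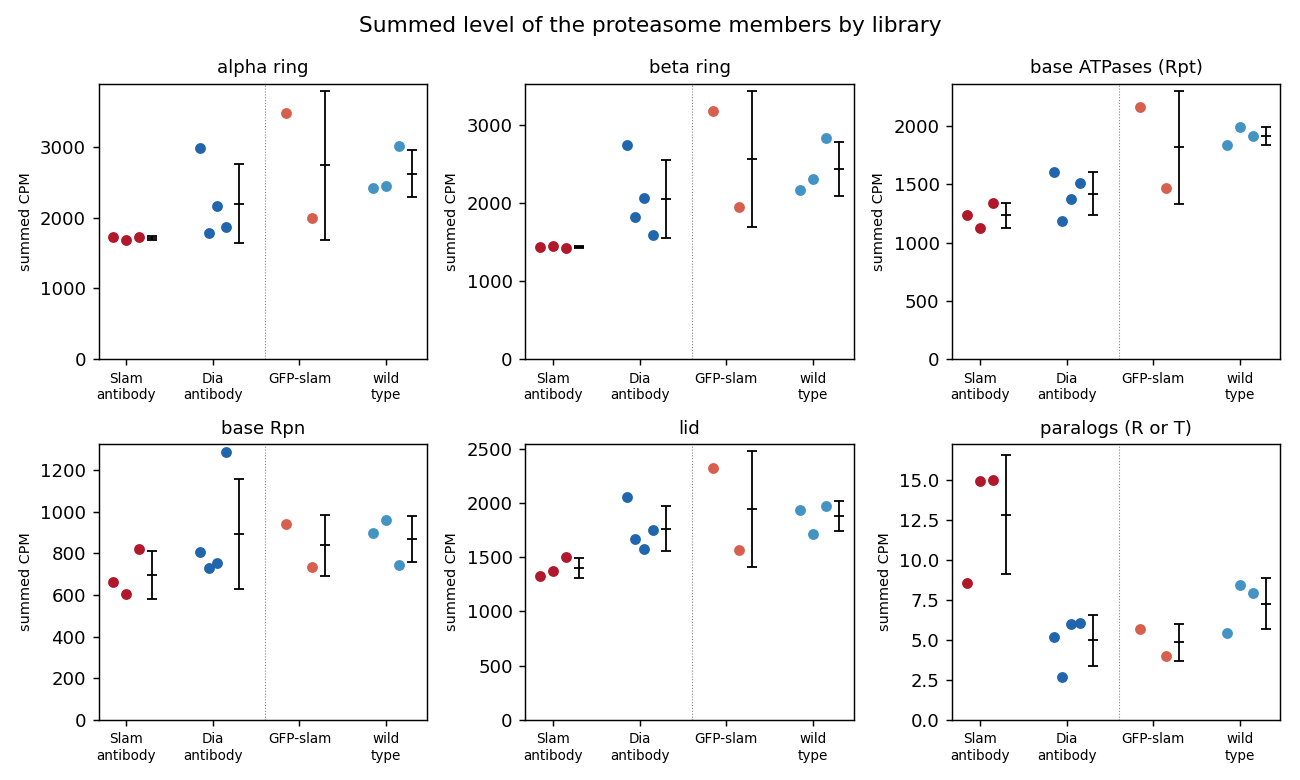
Summed CPM of the members of each subcomplex in each library (points) with mean ± SD beside them. The alpha and beta ring sums are close together in the Slam antibody libraries (1676 to 1724 and 1428 to 1451 CPM) and spread in the Dia antibody libraries (1780 to 2990 and 1585 to 2743 CPM).

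In the levels of the plain subunits, the Dia antibody libraries differed from each other more than the Slam antibody libraries did. Over the 31 plain subunits tested, the SD between libraries had a median of 6.72% of the mean with the Slam antibody and 23.1% with the Dia antibody. Dia antibody 1 was the highest of its 4 libraries for all 13 core subunits and for 6 of 18 regulatory ones. Dia antibody 4 was the highest for 7 of the 18 regulatory subunits and for 0 of the core subunits. The ratio of the core sum to the regulatory sum was accordingly between 0.758 (Dia antibody 4) and 1.28 (Dia antibody 1) in the Dia antibody libraries, a range that held the 0.983, 1.01 and 0.858 of the Slam antibody libraries. Dia antibody 1 also had the highest summed level of 7 markers of later embryos, such as Mhc of muscle, at 1602 CPM against 137 to 553 CPM in the other Dia antibody libraries and 133 to 619 CPM in the Slam antibody libraries. The part of this in the core levels was not tested. Without Dia antibody 1, the median log2 ratio of the members was -0.23. All 13 core ratios were then nearer to 0, between -0.57 (Prosbeta7) and -0.05 (Prosalpha3).

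**Figure D4:**
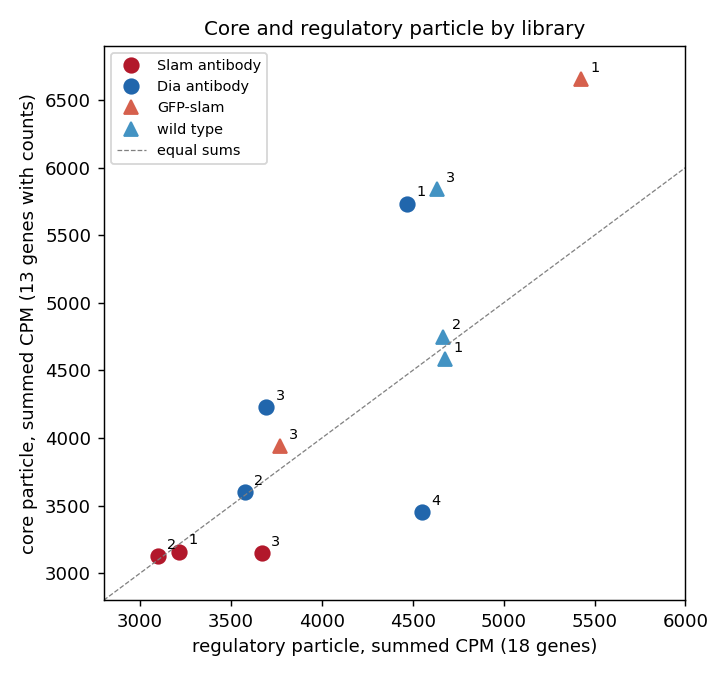
Summed CPM of the core particle (vertical axis) against that of the regulatory particle (horizontal axis), 1 point a library with its replicate number. The Slam antibody libraries lie at the lower left, Dia antibody 1, GFP-slam 1 and wild type 3 lie above the line of equal sums, and Dia antibody 4 lies below it at a ratio of 0.758.

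The log2 ratios also went with abundance over all genes. Genes with a mean normalized count of 50 to 100 had a median log2 ratio of 1.11, those of 1000 to 3000 had -0.14 and those of at least 3000 had -0.24. In the last range 69.6% of 1616 genes were below 0. The 26 members of this range had a median of -0.40, and 25 of them were below 0 and 18 below the median of the genes in the range. The 5 members between 1000 and 3000 had a median of -0.15. Other abundant transcripts thus also lay below 0, by less at the median. The part of abundance in the members' ratios was not tested.

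**Figure D5:**
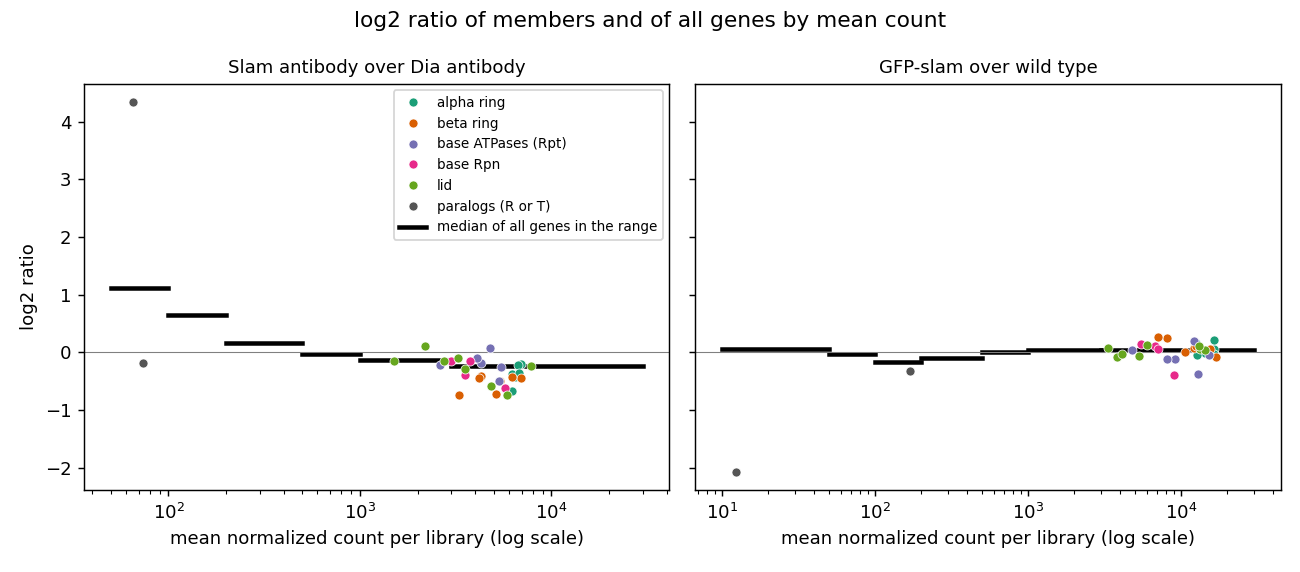
Log2 ratio of each member tested (points, coloured by subcomplex) against its mean normalized count per library on a log axis, with the median of all genes in each range of counts as black bars. With the antibodies the bars fall across the ranges (1.11 to -0.24) and in the range of at least 3000, 18 of 26 members lie below the bar (-0.24), with Rpt6 at 0.08 among those above. With the GFP-binder the bars and the plain subunits stay near 0.

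Prosbeta2R1 encodes a relative of the catalytic subunit Prosbeta2 and lies at X:5808954-5810158 in the coordinates of the authors' table, which names no build and gives a transcript of 1077 bases. It had 89, 330 and 220 counts with the Slam antibody, against 6, 1, 0 and 16 counts with the Dia antibody. These were 4.22, 10.1 and 7.62 CPM with the Slam antibody, against 0.418, 0.0636, 0 and 0.749 CPM with the Dia antibody. Every Slam antibody library was above every Dia antibody library, and the share of all genes apart in this direction was not counted. The log2 ratio was 4.34 (SE 0.89, adjusted p = 0.0120 from edgeR), the largest of the members tested with the antibodies. The gene reached the minimum of counts only through the Slam antibody libraries, at a mean normalized count of 65.6, so that it could enter the test only with a high ratio. It fell below the minimum without Slam antibody 2 or 3 and was then not tested. Of the 587 genes with a mean normalized count of 50 to 100, 10.1% were higher and 0 lower. In this range 13.8% had a log2 ratio below 0, and the median was 1.11.

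With the GFP-binder, Prosbeta2R1 was not higher in GFP-slam. It had 1 and 5 counts in GFP-slam, against 8, 22 and 2 counts in wild type, and was below the minimum of counts. With no minimum, its log2 ratio there was -2.59 (SE 1.29, adjusted p = 0.733 from edgeR). Prosbeta2 itself, the plain subunit, had 167, 183 and 175 CPM with the Slam antibody, against 292, 240, 233 and 184 CPM with the Dia antibody, opposite in direction to its relative and not past the test.

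Its other paralog Prosbeta2R2, at 3R:5217751-5219528 in the same table with a transcript of 1319 bases, had few reads. It had 7, 62 and 31 counts with the Slam antibody, against 3, 0, 0 and 6 counts with the Dia antibody. The gene was below the minimum. With no minimum, it had a log2 ratio of 2.96 (SE 1.60, adjusted p = 0.231 from edgeR), and the median over all genes was then 0.37. The GFP-binder libraries gave 4 and 5 counts in GFP-slam, against 4, 10 and 16 counts in wild type.

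Testis markers were at or near 0 in the antibody libraries. Of 14 such markers, among them dj and can, 10 had 0 counts in all Slam antibody libraries and 11 in all Dia antibody libraries. The list summed to 0.727 to 2.76 CPM with the Slam antibody and to 0 to 1.74 CPM with the Dia antibody, and its highest gene, ocn, averaged 0.612 CPM with the Slam antibody. The sperm genes dj, Mst98Ca, Mst98Cb, Mst35Ba and Mst35Bb were at 0 with both antibodies.

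Rpt3R, related to the ATPase Rpt3, was the paralog with counts in every library. It had 3.04, 2.24 and 4.95 CPM with the Slam antibody, against 3.35, 2.29, 6.01 and 4.07 CPM with the Dia antibody, and 5.41 and 3.46 CPM in GFP-slam, against 4.01, 6.22 and 6.39 CPM in wild type. The groups overlapped in both experiments. Rpt6R, related to Rpt6, had 12, 20 and 31 counts with the Slam antibody, against 9, 0, 0 and 20 counts with the Dia antibody. In GFP-slam it had 4 and 7 counts, against 11, 21 and 10 counts in wild type (log2 ratio -2.07, SE 0.89, adjusted p = 0.770 from edgeR), lower in both GFP-slam libraries and not past the test. Its mean normalized count was 4.11 in GFP-slam and 17.8 in wild type, so that it reached the minimum of 10 only through wild type and its ratio and p depend on that. Among the 1511 genes with a mean normalized count of 10 to 50, 12.7% were lower in every GFP-slam library than in any wild-type library. Rpn12R had sums of 7 counts with the Slam antibody, 9 with the Dia antibody, 4 in GFP-slam and 20 in wild type.

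The remaining paralogs were at or near 0. Prosalpha3T, Prosalpha4T2, Prosbeta4R1, Prosbeta4R2 and Prosbeta5R1 had 0 counts in all 12 libraries, which allows up to 3 counts or, by library, 0.0579 to 0.668 CPM, for counting error only. Prosalpha6T, Prosbeta5R2, Rpt4R and Rpn13R had at most 5 counts in a library. The plain subunit Prosalpha1 was listed at 0 in all 12 libraries as well, although the other 6 alpha subunits averaged 236 CPM or more with either antibody. Its copy CG30382, named Prosalpha1R in the RefSeq table, and CG18853 next to them were also listed at 0. How the counting treated reads shared by copies is not given in the sources used here, so that the 0 of Prosalpha1 cannot be read as a level.

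With the GFP-binder, 0 of the 33 members tested passed edgeR's test in either direction, and 0 passed with DESeq2. At an unadjusted p under 0.05 there was 1, Rpt6R, which reached the minimum of counts only through the wild-type libraries. Of all 8767 genes tested, 0.525% were higher and 0.228% lower at an adjusted p under 0.05. The median log2 ratio of the members was 0.05, against 0.02 over all genes. The 31 plain subunits lay between -0.39 (Rpn2) and 0.27 (Prosbeta4), with 19 above 0 and 12 below, and with SEs of 0.23 to 0.36. With 2 libraries of GFP-slam, most of these ratios were smaller than their SE.

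The subcomplexes did not stand apart from each other with the GFP-binder. The median was 0.02 for the alpha ring, 0.07 for the beta ring, -0.08 for the ATPases, 0.08 for the other base subunits and 0.05 for the lid. Prosbeta4 had 313 and 163 CPM in GFP-slam, against 212, 138 and 243 CPM in wild type. Prosalpha6, the highest of the alpha ring in ratio, had 678 and 394 CPM in GFP-slam, against 398, 474 and 520 CPM in wild type (log2 ratio 0.21, SE 0.31). Rpn2 had 238 and 221 CPM in GFP-slam, against 287, 417 and 198 CPM in wild type. For these 3 genes the groups overlapped.

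Other ends of the ranges were as near to 0. Rpt1 had 479 and 313 CPM in GFP-slam, against 346, 333 and 354 CPM in wild type (log2 ratio 0.20, SE 0.29). Rpt6 had 373 and 284 CPM in GFP-slam, against 396, 465 and 417 CPM in wild type, and was the 1 plain subunit whose GFP-slam libraries both lay below all wild-type libraries (log2 ratio -0.38, SE 0.28, not past the test). Of all genes tested, 8.42% were lower in this way. Prosbeta6, the lowest of the beta ring, had 588 and 394 CPM in GFP-slam, against 398, 590 and 566 CPM in wild type. At the ends of the lid, Rpn3 had 212 and 166 CPM in GFP-slam, against 216, 149 and 156 CPM in wild type (log2 ratio 0.12, SE 0.28), and Rpn7 had a log2 ratio of -0.08 (SE 0.26). For Rpn7 the levels were 124 and 99.7 CPM in GFP-slam, against 143, 112 and 98.6 CPM in wild type. Prosalpha7, the lowest of the alpha ring, had 453 and 302 CPM in GFP-slam, against 377, 367 and 419 CPM in wild type. The receptor Rpn13, the highest of the other base subunits, had 183 and 168 CPM in GFP-slam, against 185, 134 and 155 CPM in wild type. The groups overlapped for Rpt1, Prosbeta6, Rpn3, Rpn7, Prosalpha7 and Rpn13.

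The sum over all members was 12088 and 7714 CPM in GFP-slam, against 9262, 9425 and 10478 CPM in wild type. GFP-slam 1 was above and GFP-slam 3 below every wild-type library. The median log2 ratio followed whichever GFP-slam library was kept. It was -0.29 without GFP-slam 1 and 0.28 without GFP-slam 3. The core particle summed to 6654 and 3941 CPM in GFP-slam, against 4582, 4749 and 5840 CPM in wild type. The ratio of core to regulatory sum was 1.23 and 1.05 in GFP-slam, against 0.980, 1.02 and 1.26 in wild type.

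Whether the ratio of a member differed between the experiments was tested in a fit of all 12 libraries. Of 32 members tested, 0 differed by edgeR and 0 by DESeq2, and of all 7197 genes tested 3.32% differed by edgeR, at an adjusted p under 0.05. At an unadjusted p under 0.05 there were 3 members, and the share of all genes at that limit was not counted. The 3 members were Rpn5 (difference -0.77 on the log2 scale, SE 0.31, adjusted p = 0.200 from edgeR), Prosbeta4 (-0.97, SE 0.42, adjusted p = 0.222 from edgeR) and Prosbeta7 (-0.81, SE 0.36, adjusted p = 0.238 from edgeR). The difference was below 0, which is a lower ratio with the antibodies, for 28 of the 32. Its median was -0.30 over these members, against -0.03 over all genes tested. It was below 0 for 21 of 33 members without GFP-slam 1 (median -0.10) and for 30 of 32 without GFP-slam 3 (median -0.54). Prosbeta2R1 was not among the 32, since it was below the minimum with the GFP-binder.

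Genes that work with the proteasome were examined beside it. Among all 7466 genes tested with the antibodies, 3.62% were lower and 6.84% higher with the Slam antibody. Of 12 assembly factors and regulators tested, 2 were lower and 1 was higher, and the median log2 ratio was -0.23. The lower ones were Pomp, a chaperone of core assembly (log2 ratio -0.95, SE 0.22, adjusted p = 0.0216 from edgeR), and rngo, a shuttle factor for ubiquitinated proteins (-0.72, SE 0.19, adjusted p = 0.0322). Pomp averaged 63.5 ± 5.66 CPM with the Slam antibody (SD, n = 3) and 123 ± 29.0 CPM with the Dia antibody (SD, n = 4). The higher one was CG9588, a relative of an assembly chaperone of the base, at 1.37 (SE 0.38, adjusted p = 0.0394 from edgeR), which did not pass with libraries scaled by total counts. When any 1 of the Slam antibody libraries was left out, 0 of these 3 genes passed. Without Dia antibody 1, Pomp alone passed, and without Dia antibody 2 or 3 CG9588 did not.

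Of 9 genes of ubiquitin and its handling, 2 were lower with the Slam antibody and 0 higher, with a median of -0.40. Over all genes tested, 3.62% were lower and 6.84% higher. With the replicate block Ubi-p5E also passed as lower (log2 ratio -0.69, adjusted p = 0.0317 from edgeR), with total counts Uba1 did, and with DESeq2 both did. The share of all genes lower was 8.52% with the block and 6.62% with DESeq2. With total counts, 416 of 7466 genes were lower. RpL40, which encodes ubiquitin fused to a ribosomal protein, averaged 325 ± 54.8 CPM with the Slam antibody (SD, n = 3) and 663 ± 79.9 CPM with the Dia antibody (SD, n = 4), a log2 ratio of -1.03 (SE 0.21, adjusted p = 0.0116 from edgeR). The ubiquitin-conjugating enzyme eff averaged 290.1 ± 25.2 CPM with the Slam antibody (SD, n = 3) and 589.8 ± 79.6 CPM with the Dia antibody (SD, n = 4), a log2 ratio of -1.02 (SE 0.20, adjusted p = 0.0103 from edgeR). The highest of the list was Ufd1-like, a partner of the segregase TER94, at 0.23 (SE 0.22). RpL40 did not pass without Slam antibody 2, and eff passed whichever library was left out.

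Complexes of other function gave a scale for these ratios. The COP9 signalosome, whose subunits share folds with the lid, had a median of -0.55 over 8 genes tested, with CSN7 lower (log2 ratio -0.84, SE 0.21, adjusted p = 0.0290 from edgeR) and ratios from -0.89 (alien) to 0.25 (CSN8). The chaperonin CCT had a median of -0.26 over 8 genes and 0 past either edgeR or DESeq2 (1 had an unadjusted p under 0.05), from -0.55 (Tcp-1eta) to 0.28 (CG5525). The translation factor eIF3, which also shares folds with the lid, had a median of -0.17 over 13 genes, with CG10306 (eIF3k) lower at -0.88 (SE 0.21, adjusted p = 0.0248 from edgeR) and eIF3-S10 and eIF3-S9 higher at 4.36 and 2.37. Over all genes tested, 3.62% were lower and 6.84% higher. The proteasome median of -0.29 was within the range of these lists. When any 1 of the Slam antibody libraries was left out, CSN7 and CG10306 did not pass, and CSN7 did not without Dia antibody 1. With the replicate block alien (log2 ratio -0.98, adjusted p = 0.0207 from edgeR), CSN6 (-0.68, adjusted p = 0.0333) and CG9769 of eIF3 (-0.72, adjusted p = 0.0270) also passed as lower. Beside CSN7, alien also passed with total counts and with DESeq2. Of eIF3, CG9769 also passed as lower with total counts and in the fit of all 12 libraries. With DESeq2, CG9769, eIF-3p40 and Trip1 did. The share of all genes lower was 8.52% with the block and 6.62% with DESeq2. It was 416 of 7466 genes with total counts and 360 of 7197 in the fit of all 12 libraries.

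With the GFP-binder, 0 genes of these lists passed by edgeR or by DESeq2, and 1 had an unadjusted p under 0.05. Their medians were 0.06 for assembly and regulators, 0.15 for ubiquitin, -0.01 for the COP9 signalosome, 0.05 for CCT and -0.04 for eIF3. The lowest single ratio was -0.67 (Ufd1-like, SE 0.25, adjusted p = 0.549 from edgeR) and the highest was 0.62 (Ubi-p5E, SE 0.35). CG8858, a relative of the proteasome-binding protein Ecm29, was at 0.49 (SE 0.30) and ntc at -0.30 (SE 0.27). The COP9 signalosome ran from -0.27 (CSN1b) to 0.13 (alien), CCT from -0.33 (CG5525) to 0.35 (Tcp-1eta) and eIF3 from -0.16 (Tango7) to 0.16 (eIF3-S9).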

How the data were processed

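RNA bound in immunoprecipitates from embryo extracts was sequenced in 12 TruSeq libraries on a HiSeq2000. The authors deposited tables of raw read counts per gene, which were used as deposited. STAR 2.5.0, DESeq2, FastQC 0.11.4 and bcl2fastq 2.17.1.14 appear in the submitters' processing notes with no role. For the counter, strand, shared reads, build and annotation, details were not given in the sources used here. Tables of candidate genes hold the authors' own ratios and p-values, of which only coordinates and transcript lengths were read.

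Counts were normalized by TMM over all genes and fitted per experiment with edgeR 4.0.16 in R 4.3.3 (robust quasi-likelihood test, Benjamini-Hochberg over all genes tested), without a block. The minimum mean normalized counts of 50 and 10 follow the limits in the study's methods, read as means. Symbols were those of the files, with 394 genes of the antibody table and 7 of the GFP-binder table without one. The difference between experiments was a contrast in 1 fit of all libraries. None was counted as a duplicate, since the 13 pairs of libraries within groups had a chi-square of 51.6 to 332 per degree of freedom. Values of every library were planned for members past the test, the extremes and the most abundant member of each subcomplex and paralogs averaging at least 1 count a library. Values of Prosbeta2, Prosbeta7, Rpn11 and Rpn12 were added after they were seen. Members and lists were chosen with earlier results of these data known. Alternatives were RLE normalization, total counts, DESeq2 1.42.0, other minimums, the block and leaving out each library. The scripts were tested on simulated data.

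Replicate numbers come from the labels. Deviations from the group means correlated for the same-numbered Slam and Dia antibody libraries at 0.26, 0.385 and 0.106, each over the limit set for pairing, although Slam antibody 3 correlated best with Dia antibody 4 (0.346), which has no partner. The blocked values are therefore given where they changed a call. GFP-slam and wild type shared 2 numbers, at 0.0287 and -0.118, and were not taken as paired.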

Additional observations from a re-analysis of the deposited data

Results flagged for a closer look

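Of 41 groups of 4 Dia antibody values examined (the 33 members tested and 8 sums or ratios of sums), 3 had 1 library far from the others by Dixon's test, which chance gives in about 5% of groups. Rpn2 had 649 CPM in Dia antibody 4, and the nearest of the other Dia antibody libraries had 241 CPM. The summed level of Rpn1, Rpn2, Rpn10 and Rpn13 was 1288 CPM in the same library, with 807 CPM the nearest, and Rpn2 is part of that sum. Rpn8, the partner of Rpn11 in the lid, had 194 CPM in Dia antibody 2, with 132 CPM the nearest.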

How the results depend on the processing

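With the antibodies, 2 members passed the test, of which Prosbeta2R1 entered it only through the Slam antibody libraries. The number was 4 with total counts, 5 with DESeq2 and 5 with the replicate block, and 0 to 5 when 1 library was left out. The members added were Prosalpha7, Prosbeta4 and Prosbeta7, in differing combinations. The block changed no other call of a member. The median log2 ratio of the members lay between -0.36 and -0.25 under the other settings and between -0.49 and -0.23 without 1 library. Among all genes, DESeq2 called 772 higher and 494 lower, the block 782 and 636, and total counts 457 and 416, where the median of all genes was -0.11. With the GFP-binder, 0 members passed under any alternative run. The median was between -0.01 and 0.05, and -0.29 to 0.28 without 1 library, where a lone GFP-slam library is assumed to vary like wild type. With the block it was -0.01. The count of members that differed between the experiments was 0, and 0 to 1 without 1 library. The 1 was Prosbeta2R1 without wild type 3 (adjusted p = 0.0216 from edgeR). That gene reached the minimums only through the Slam antibody and the wild-type libraries. It could therefore enter this test only with such a difference, and no conclusion is drawn from its p. The log2 ratio of the summed levels was -0.36 with the antibodies (-0.43 with total counts, -0.43 to -0.25 without 1 library) and 0.03 with the GFP-binder (-0.33 to 0.31). That of the core over regulatory ratio was -0.14 (-0.27 to -0.03) with the antibodies and 0.06 (-0.06 to 0.19) with the GFP-binder. Leaving a library out of these sums, and the lists under alternatives, were added after seeing the data. Where an alternative gave a test, the calls of single members with the antibodies stayed as they were in 442 cases, 13 were gained and 4 lost. Prosbeta2R1 was in addition not tested without Slam antibody 2 or 3 or in the fit of all 12 libraries, where it was below the minimum. Causes were not tested. For the paralogs with a few counts, a difference was not detectable at this depth.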
